A study of Homo sapiens with 24 samples.

Results

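The AP-1 genes FOS, FOSB, FOSL1, FOSL2, JUN, JUNB, JUND, MAFF and BATF3 were taken from the arrays by gene name, 9 genes of the 15154 that could be tested. Each had 1 probe that was not a control. All 9 entered the tests, which took a probe if every array of some treatment had it well above background. The probes of 8 genes were well above background on all 24 arrays, and that of FOSL2 on 19. The arrays measured gene expression in HCT-116, a human colorectal cancer cell line, in a stably transfected form in which doxycycline induces DN-Tcf4, a Tcf4 that cannot bind beta-catenin and represses Wnt signaling. Cells were left untreated (Ctl), given 5 mM sodium butyrate (NaB), 4 μg/ml doxycycline (Doxy), or both agents (DoxyNaB). The labels give 17.5 hr of treatment, and by the study's methods doxycycline came first and 17.5 hr was the time with butyrate added. The study asked how butyrate, a short-chain fatty acid and histone deacetylase inhibitor, changes expression in these cells with and without DN-Tcf4. The 24 arrays come from 6 experiments, with every treatment once in each. All cells carry the inducible construct, those of the Ctl and NaB arrays included. They come from a single clone, so that nothing here shows how another clone responds. No cells without the construct were given doxycycline, so that the drug itself and DN-Tcf4 cannot be told apart. By the study's western blot, DN-Tcf4 was minimal with doxycycline alone and high with both agents. The labels number the experiments but do not say whether each used a separate culture. The p-values of the main fit rest on how treatment differences vary over these experiments, pooled over the 4 treatments and with information shared across probes. They measure no spread beyond these experiments.

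AP-1 is a dimer of basic leucine zipper proteins. In AP-1, FOS family proteins (FOS, FOSB, FRA-1 from FOSL1 and FRA-2 from FOSL2) bind DNA together with a JUN family protein (JUN, JUNB or JUND), while JUN proteins can also pair with each other. FOS, FOSB, JUN and JUNB are classical immediate early genes, transcribed within minutes of a growth factor or stress signal through kinases of the MAPK cascades. FRA-1 is known for its high level in many invasive carcinomas, including those of the colon. MAFF is a small MAF protein without a transactivation domain, and BATF3 is a JUN partner known mainly from dendritic cells.

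A level is a probe's log2 signal after the array's own 75th percentile was subtracted, and it allows a gene to be compared between arrays but not with another gene. The arrays differed in background. The share of spots well above background ran from 52.7% to 88.1% per array, with every array of experiments 2 to 4 at 78.4% or more and every other array at 62.6% or less. Negative controls were highest on the DoxyNaB array of experiment 2 (mean net signal 248.9) and the NaB array of experiment 3 (161), against 48.4 to 115 on the others. In experiment 1 the slide cannot be told apart from butyrate, since the arrays with it had a slide of their own. Of 7 genes of colon epithelium (EPCAM, CDH1, KRT8, KRT18, KRT19, CLDN4 and ELF3), 6 were well above background on all 24 arrays and EPCAM on 22. Among 5 haematopoietic markers 1, CD68, was on all 24, and among 6 fibroblast and endothelial markers 0 were, with COL3A1 on 0 arrays. On every array of at least 1 treatment, however, 3 of the 5 and 2 of the 6 were well above background, so that these markers were not all absent. AXIN2, a direct Wnt target, was lower in DoxyNaB than in NaB cells by a log2 change of -2.53 ± 0.09 (SE, n = 6 experiments, limma adjusted p = 2.63e-11), and the TCF7L2 probe, which cannot tell the construct from the cell's own Tcf4, was higher by 2.96 ± 0.36 (SE, n = 6 experiments, limma adjusted p = 3.64e-05), a call lost by the methods' t-test (adjusted p = 0.0386) and in experiments 5 and 6 alone (0.117). In Doxy/Ctl, AXIN2 changed by -0.58 ± 0.09 (SE, limma adjusted p = 0.00289) and the TCF7L2 probe by -0.17 ± 0.36 (SE, limma adjusted p = 0.921, higher in 3 of 6 experiments), so that without butyrate this probe gave no rise past the test.

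FOS, FOSB, JUN and JUNB, the 4 genes that rose with butyrate by more than 2-fold, moved together, and the 150 bases before their transcription start are shown from RefSeq on GRCh38.p14, with TGACG in capitals. FOS lies on the plus strand (chr14:75278678-75278827), FOSB on the plus strand (chr19:45467846-45467995), JUN on the minus strand (chr1:58784048-58784197) and JUNB on the plus strand (chr19:12791336-12791485).
FOS: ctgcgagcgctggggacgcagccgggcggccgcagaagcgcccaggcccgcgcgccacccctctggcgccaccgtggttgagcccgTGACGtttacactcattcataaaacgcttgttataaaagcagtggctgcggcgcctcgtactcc
FOSB: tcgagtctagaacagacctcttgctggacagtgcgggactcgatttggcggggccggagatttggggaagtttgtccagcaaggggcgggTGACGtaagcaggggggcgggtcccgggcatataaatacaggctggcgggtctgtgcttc
JUN: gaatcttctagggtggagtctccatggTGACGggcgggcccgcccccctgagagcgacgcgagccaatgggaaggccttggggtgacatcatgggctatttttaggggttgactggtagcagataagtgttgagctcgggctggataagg
JUNB: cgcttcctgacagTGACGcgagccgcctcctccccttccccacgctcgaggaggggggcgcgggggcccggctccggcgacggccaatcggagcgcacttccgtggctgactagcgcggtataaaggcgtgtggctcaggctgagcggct
TGACG, which is the first part of the cAMP response element TGACGTCA, begins 64 bases before the start in FOS, 60 in FOSB, 123 in JUN and 137 in JUNB. TATAAA was found on the strand of the gene 33 bases before the start in FOS, 30 in FOSB and 31 in JUNB. Over the 250 bases before the start, on both strands, TGACG was present in 7 of the 7 genes with an entry, against 21.2% of all 35116 promoters of that table. For this and the motifs below a gene counted if any of its promoters matched, while the share is per promoter. MAFF had a promoter with TGACG and another without it. The genes with TGACG include JUND and FOSL2, whose response was small or not past the test. TATAAA, searched on the strand of the gene only, was in 3 of the 7 genes, against 6.80% of all promoters. TGACG and TATAAA were picked after these sequences were seen. Of the motifs on the initial list, the AP-1 site TGACTCA was in 0 of 7 (4.20% of all promoters), TGACGTCA, which contains TGACG, in JUND and MAFF (1.65%), the E-box CACGTG in MAFF (6.34%) and the serum response element (CArG box) in 0 (1.16%). A match is a run of letters and does not show that a factor binds there. Only these exact patterns were searched, and not farther than 250 bases before the start, so that a 0 holds for this window only. A 0 also does not exclude a variant of a motif. The JUN sequence above, for example, holds TGACATCA, which was not counted. FOSL1 and BATF3 had no entry in the promoter table.

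**Figure D1:**
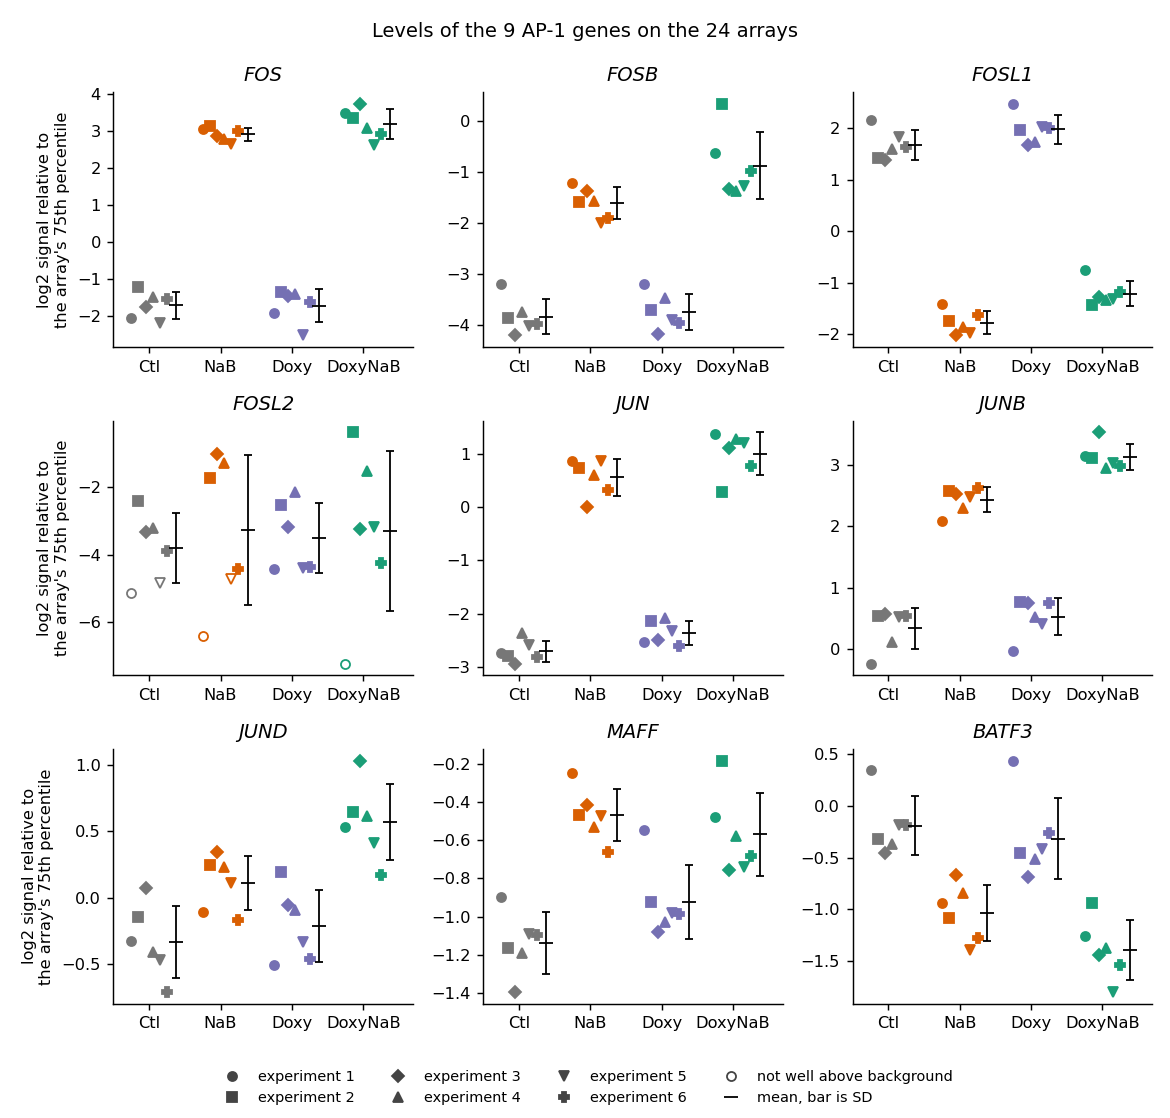
Levels of the 9 AP-1 genes, one panel per gene, on the log2 scale with each array's 75th percentile at 0 (y axis, own range per gene) in the 4 treatments (x axis). Symbols are the 6 experiments, open where the probe was not well above background, and the black bar is the mean with its SD. FOS, FOSB, JUN and JUNB lie higher and FOSL1 lies lower on every butyrate array than on any array without butyrate.

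Butyrate without doxycycline (NaB/Ctl) changed the AP-1 genes in opposite directions. FOS rose 24.7-fold, JUN 9.65-fold, FOSB 4.70-fold and JUNB 4.25-fold, whereas FOSL1 fell 10.9-fold, each in 6 of 6 experiments. MAFF and JUND rose and BATF3 fell by less than 2-fold, and FOSL2 did not pass the test. A call required a change of more than 2-fold together with a p under 0.01 after Benjamini-Hochberg adjustment over all 18966 probes tested. By this rule 5 of the 9 AP-1 genes were called, 4 higher and 1 lower, where 32.5% of all genes tested were called (21.0% higher, 11.5% lower). At an adjusted p under 0.01 alone the count was 8 of 9, against 69.7% of all genes. The median size of the log2 change was 2.09 over the AP-1 genes and 0.68 over all genes tested. RNA came from whole cultures, in which a change per cell and a change in the share of expressing cells cannot be told apart.

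FOS encodes the founding partner of JUN in AP-1, and its probe covers bases 74817967 to 74818026 of chromosome 14 (NCBI36). The level of FOS was -2.21 at the lowest, -1.67 at the median and -1.23 at the highest on the 6 Ctl arrays. On the 6 NaB arrays it was 2.64, 2.92 and 3.13. The groups did not overlap, and the gap between them was wider than the range of either. The log2 change was 4.63 ± 0.14 (SE, n = 6 experiments, limma adjusted p = 9.68e-15), from 4.27 to 5.10 in single experiments. Among all 15154 genes tested FOS had the 57th highest change.

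FOSB, a close relative of FOS that is also expressed as a shorter splice form, has its probe on chromosome 19 (NCBI36, 50670045 to 50670104). Its level was -4.21, -3.92 and -3.21 (lowest, median and highest) on the Ctl arrays and -2.01, -1.58 and -1.21 on the NaB arrays, again with no overlap. FOSB changed by 2.23 ± 0.19 (SE, n = 6 experiments, limma adjusted p = 7.94e-09). The FOSB probe reached its highest level, 0.34, on the DoxyNaB array of experiment 2, the array with the highest negative controls.

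FOSL1 ran the other way. Its probe, at 65416674 to 65416733 of chromosome 11 (NCBI36), read 1.38, 1.61 and 2.17 on the Ctl arrays and -2.03, -1.80 and -1.43 on the NaB arrays. All 6 NaB arrays lay below all 6 Ctl arrays. On the log2 scale FOSL1 fell by 3.45 ± 0.08 (SE, n = 6 experiments, limma adjusted p = 5.44e-16), the 17th lowest of all genes tested. FOSL2, the gene of the related FRA-2, could not be placed. Its probe (chromosome 2, 28490679 to 28490738) ranged from -5.14 to -2.41 on the Ctl arrays and from -6.41 to -1.0 on the NaB arrays, and 4 arrays of each group were well above background. The log2 change of FOSL2 was 0.54, with a 95% interval from -0.58 to 1.66 (limma adjusted p = 0.366, higher in 4 of 6 experiments). That interval spans a fall and a 2-fold rise. The change was 1.64 (adjusted p = 0.0262) in experiments 2 to 4, -0.21 in experiments 5 and 6, 1.02 (adjusted p = 0.0336) with the slide as block, and between 0.18 and 0.90 without single experiments. The 5 of 24 FOSL2 values that were not well above background belong to experiments 1 and 5, whose arrays had a smaller share of spots above background, and the part of this in the FOSL2 levels was not tested.

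In the JUN family, JUN and JUNB rose strongly and JUND little. JUN is the AP-1 subunit that is activated by JNK phosphorylation. Its probe (chromosome 1, 59019099 to 59019158) read -2.94, -2.77 and -2.37 on the Ctl arrays and -0.01, 0.66 and 0.87 on the NaB arrays, with no overlap. For JUN the log2 change was 3.27 ± 0.15 (SE, n = 6 experiments, limma adjusted p = 1.26e-12), the 284th highest of all genes tested. JUNB, a weaker activator that can oppose JUN, has its probe on chromosome 19 (12763998 to 12764057). It read -0.24, 0.53 and 0.58 on the Ctl arrays and 2.09, 2.50 and 2.62 on the NaB arrays, and the groups lay apart. JUNB changed by 2.09 ± 0.10 (SE, n = 6 experiments, limma adjusted p = 3.63e-12). JUND, the JUN protein that is expressed most steadily in resting cells, has its probe on chromosome 19 (18252371 to 18252430). It read -0.71, -0.37 and 0.07 on the Ctl arrays and -0.16, 0.17 and 0.34 on the NaB arrays, which overlap. The log2 change was 0.44 ± 0.08 (SE, n = 6 experiments, limma adjusted p = 5.68e-05), higher in 6 of 6 experiments, but -0.31 with the arrays scaled to their median, and not past the threshold in experiments 2 to 4 alone (adjusted p = 0.0174), with normexp (0.0149) or without the replicate block (0.0137).

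MAFF, whose probe is printed in 10 spots per array (chromosome 22, 36941930 to 36941989), read -1.39, -1.13 and -0.90 on the Ctl arrays and -0.66, -0.47 and -0.25 on the NaB arrays. The groups did not overlap, yet the shift was small. Its log2 change was 0.67 ± 0.08 (SE, n = 6 experiments, limma adjusted p = 5.87e-07), and -0.08 with the arrays scaled to their median. BATF3 (chromosome 1, 210926651 to 210926710) read -0.45, -0.25 and 0.34 on the Ctl arrays and -1.40, -1.01 and -0.67 on the NaB arrays, also without overlap. BATF3 changed by -0.84 ± 0.15 (SE, n = 6 experiments, limma adjusted p = 7.53e-05), but -0.48 in experiments 2 to 4 (adjusted p = 0.0255) against -1.15 in experiments 5 and 6. In all, NaB and Ctl arrays did not overlap for 7 of the 9 genes, where they did not overlap for 45.3% of all genes tested.

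**Figure D2:**
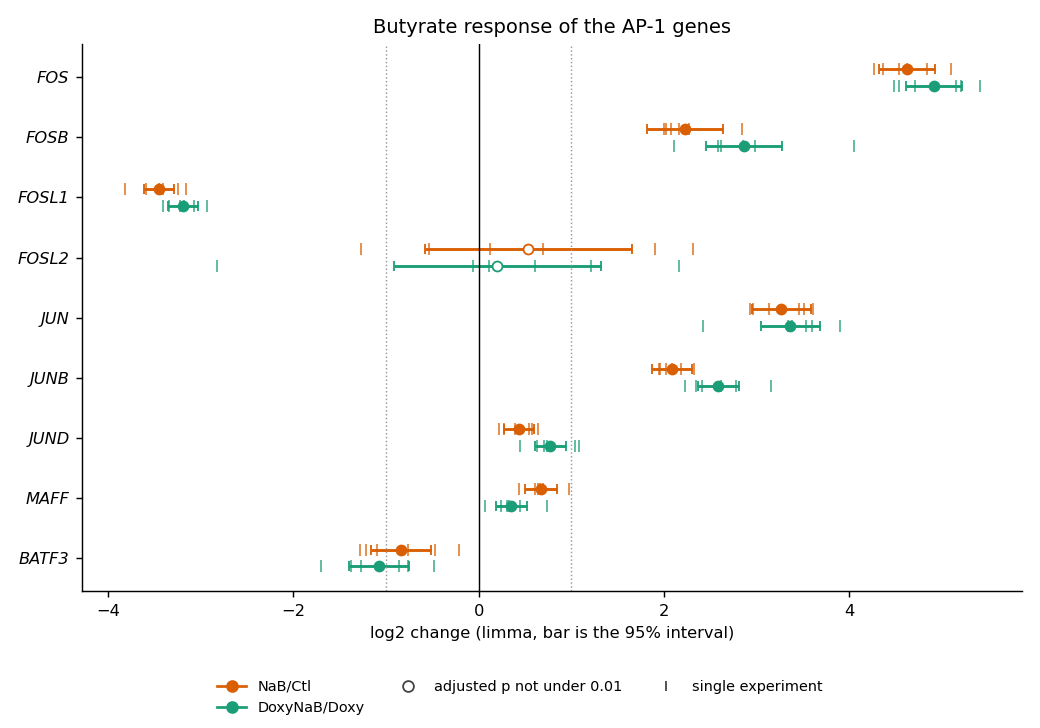
Log2 change of each AP-1 gene with butyrate (x axis) without doxycycline (NaB/Ctl) and with it (DoxyNaB/Doxy). Circles are limma estimates with their 95% interval, filled at an adjusted p under 0.01, ticks are single experiments, and dotted lines mark a 2-fold change. FOS, JUN, FOSB and JUNB lie to the right of the 2-fold line in every experiment of both comparisons and FOSL1 to the left.

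The sizes of these changes depend on how the arrays are put on a common scale. Over all probes tested the median log2 change in NaB/Ctl was 0.17 with the 75th percentile, 0.01 after normexp background correction, -0.09 after quantile normalization and -0.58 when arrays were scaled to their median. Of the called probes 65.3% were higher in NaB cells with the 75th percentile, 47.3% with normexp, 43.8% with quantile normalization and 21.2% with the median. FOS, JUN, FOSB and JUNB remained higher and FOSL1 lower under each of these. FOS rose 15.4-fold after normexp and 14.7-fold after median scaling, and JUN 4.78-fold and 5.74-fold. FOSB moved most, to 2.08-fold after normexp, 2.79-fold after median scaling and 2.99-fold with quantile normalization. JUNB rose 2.53-fold with the median, where FOSL1 fell 18.3-fold and BATF3 3.01-fold. Within the scan that holds experiments 2 to 4 the log2 change was 4.42 for FOS, 3.14 for JUN, 2.43 for FOSB, 2.05 for JUNB and -3.34 for FOSL1. Within that of experiments 5 and 6 it was 4.70, 3.29, 2.05, 2.02 and -3.53 in the same order.

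**Figure D3:**
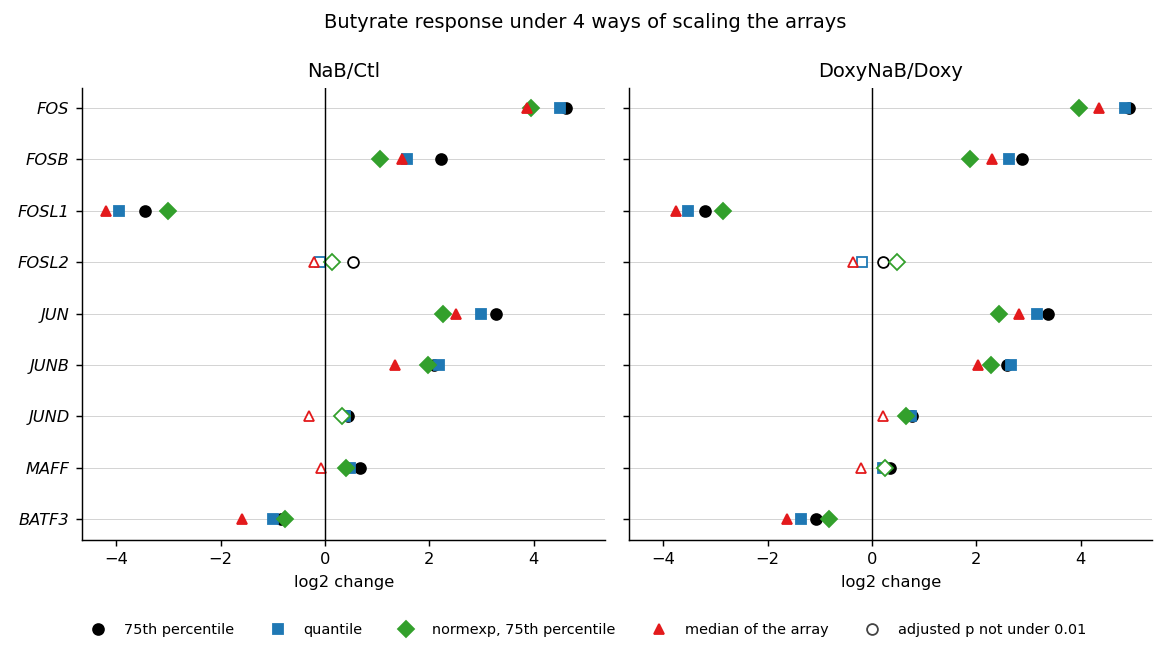
Log2 change of each AP-1 gene with butyrate (x axis) without (left) and with doxycycline (right) under 4 ways of scaling the arrays (symbols), filled at an adjusted p under 0.01. FOS, FOSB, JUN, JUNB and FOSL1 keep their side of 0 in all 8 combinations, whereas JUND in NaB/Ctl and MAFF in both cross 0 with scaling to the median, and FOSL2 in both crosses 0 with scaling to the median and with quantile normalization.

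With doxycycline present (DoxyNaB/Doxy) the same 5 genes moved in the same directions. BATF3, which had fallen by less than 2-fold without doxycycline, fell past the 2-fold line. The difference between its responses with and without doxycycline did not pass the test (limma adjusted p = 0.747). FOS rose 30.2-fold, JUN 10.3-fold, FOSB 7.29-fold and JUNB 6.02-fold, and FOSL1 fell 9.15-fold, each in 6 of 6 experiments. BATF3 fell 2.11-fold. In this comparison 6 of the 9 AP-1 genes were called, 4 higher and 2 lower, against 31.2% of all genes tested (18.7% higher, 12.5% lower), and 8 of 9 had an adjusted p under 0.01, against 68.4%. NaB/Ctl and DoxyNaB/Doxy use different arrays of the same 6 experiments.

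FOS read -2.54, -1.55 and -1.36 (lowest, median and highest) on the Doxy arrays and 2.62, 3.21 and 3.73 on the DoxyNaB arrays, a log2 change of 4.92 ± 0.14 (SE, n = 6 experiments, limma adjusted p = 4.46e-15). JUN read -2.61, -2.41 and -2.08 against 0.29, 1.15 and 1.37, a log2 change of 3.37 ± 0.15 (SE, n = 6, limma adjusted p = 7.93e-13). For both genes the 2 groups were far apart. FOSB read -4.18, -3.81 and -3.20 against -1.37, -1.13 and 0.34, with a log2 change of 2.87 ± 0.19 (SE, n = 6, limma adjusted p = 2.51e-10). JUNB read -0.02, 0.63 and 0.76 against 2.94, 3.07 and 3.53, with a log2 change of 2.59 ± 0.10 (SE, n = 6, limma adjusted p = 1.95e-13). FOSL1 read 1.66, 1.99 and 2.47 on the Doxy arrays and -1.44, -1.30 and -0.75 on the DoxyNaB arrays, with no overlap and a log2 change of -3.19 ± 0.08 (SE, n = 6, limma adjusted p = 8.18e-16). With normexp the fold was 15.7 for FOS, 5.43 for JUN and 3.68 for FOSB.

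BATF3 read -0.68, -0.44 and 0.44 on the Doxy arrays and -1.80, -1.41 and -0.94 on the DoxyNaB arrays, which did not overlap. Its log2 change of -1.07 ± 0.15 (SE, n = 6, limma adjusted p = 4.73e-06) lies just past the 2-fold line, and without experiment 1 it was -0.95. JUND rose by 0.77 ± 0.08 (SE, limma adjusted p = 5.42e-08) and MAFF by 0.35 ± 0.08 (SE, limma adjusted p = 0.000712), each higher in 6 of 6 experiments and each with groups that overlap. With scaling to the median JUND changed by 0.22 (adjusted p = 0.394) and MAFF by -0.21. The MAFF call was also lost with normexp (adjusted p = 0.0291), when fitted on DoxyNaB and Doxy arrays alone (0.0141), in experiments 5 and 6 alone (0.0605) and by the methods' t-test (0.0204). FOSL2 changed by 0.20, with a 95% interval from -0.91 to 1.32 (limma adjusted p = 0.738). DoxyNaB and Doxy arrays did not overlap for 6 of the 9 genes, against 43.4% of all genes tested.

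With DN-Tcf4 induced in the presence of butyrate (DoxyNaB/NaB), the estimated change of each AP-1 gene was less than 2-fold. A larger change was not excluded for FOSB and FOSL2. The limma interval of the log2 change ran from 0.32 to 1.14 for FOSB and from -1.15 to 1.08 for FOSL2. With quantile normalization FOSB changed by 1.02. By the rule with the fold, 0 of 9 genes were called by limma, against 0.403% of all genes tested, and 0 by the methods' t-test. FOSL1, JUNB and JUND were higher in DoxyNaB cells at an adjusted p under 0.01, 3 of 9 genes against 2.73% of all genes (0.693% higher, 2.03% lower), and 6 of 9 had an unadjusted p under 0.05, against 16.1% of all genes. JUNB showed the clearest shift, from 2.09 to 2.62 on the NaB arrays and from 2.94 to 3.53 on the DoxyNaB arrays, the only one of the 9 genes whose groups did not overlap (1.84% of all genes tested). Its log2 change was 0.69 ± 0.10 (SE, n = 6 experiments, limma adjusted p = 0.000369), higher in 6 of 6 experiments. FOSL1 changed by 0.56 ± 0.08 (SE, limma adjusted p = 0.00015) and JUND by 0.46 ± 0.08 (SE, limma adjusted p = 0.0013), both higher in 6 of 6 experiments with groups that overlap.

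These calls were not stable. All 3 were lost with normexp (lowest adjusted p = 0.0215), with scaling to the median (0.231), without the replicate block (0.0167), when fitted on DoxyNaB and NaB arrays alone (0.0209) and by the methods' t-test after adjustment (0.0408), and within each scan, experiments 2 to 4 (0.0402) and experiments 5 and 6 (0.233), although each of the 3 genes was higher in DoxyNaB cells under all 19 alternatives. FOSL1 was also lost with quantile normalization (adjusted p = 0.262), and JUND without experiment 3 (0.0101). FOSB changed by 0.73 ± 0.19 (SE, limma adjusted p = 0.0368) and JUN by 0.44 ± 0.15 (SE, limma adjusted p = 0.122). Without the NaB array of experiment 3 and the DoxyNaB array of experiment 2, those of highest negative controls, FOSB changed by 0.62 (adjusted p = 0.000987) and JUN by 0.51 (adjusted p = 0.0076), and 5 genes passed. JUN also passed without experiment 2 (adjusted p = 0.00677). For FOS the log2 change was 0.29, with a 95% interval from -0.01 to 0.59 (limma adjusted p = 0.349), for BATF3 -0.36, from -0.68 to -0.04 (adjusted p = 0.255), for MAFF -0.10, from -0.27 to 0.07, and for FOSL2 -0.04, from -1.15 to 1.08.

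Doxycycline without butyrate (Doxy/Ctl) gave no AP-1 gene past the test. With limma 0 of 9 were called and 0 had an adjusted p under 0.01, where 0.0924% and 0.554% of all genes tested did, 3 of 9 had an unadjusted p under 0.05 (13.3% of all genes), and by the methods' t-test 0 passed after adjustment. FOSL1 came nearest, with a log2 change of 0.31 ± 0.08 (SE, n = 6 experiments, limma adjusted p = 0.0635), higher in 6 of 6. JUN changed by 0.34 (adjusted p = 0.341) and MAFF by 0.21 (adjusted p = 0.26), also higher in 6 of 6. FOS changed by 0.00, with a 95% interval from -0.30 to 0.30. The 95% intervals of all genes but FOSL2 lay within 0.66 of 0.

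**Figure D4:**
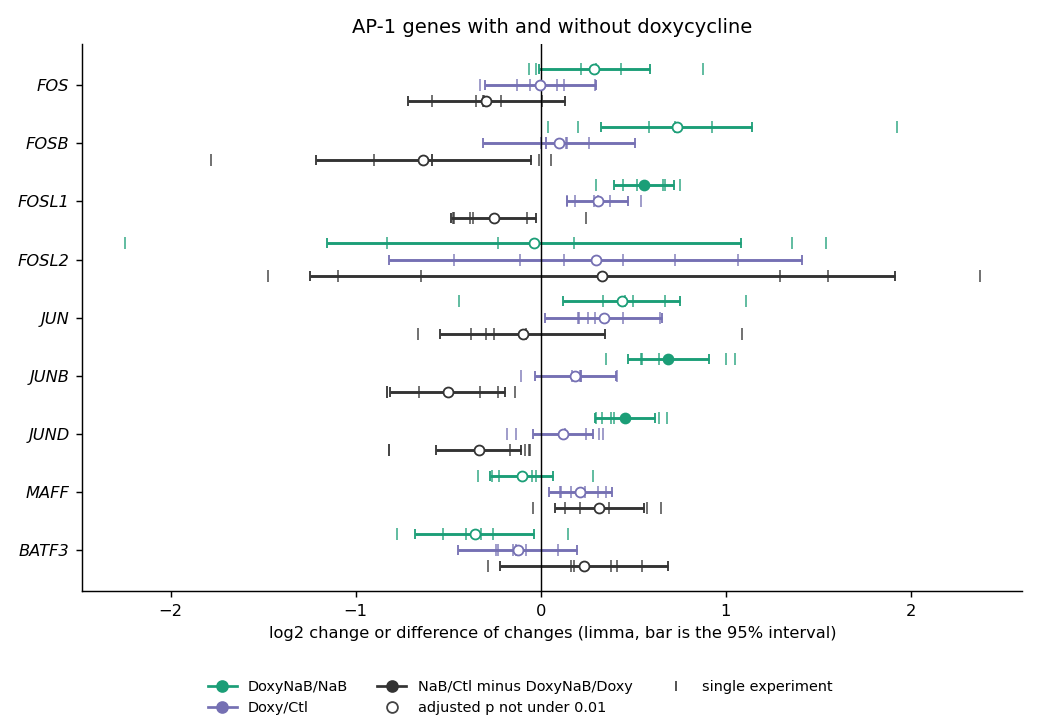
Log2 change of each AP-1 gene with doxycycline in the presence (DoxyNaB/NaB) and absence (Doxy/Ctl) of butyrate, and the NaB/Ctl change minus the DoxyNaB/Doxy change (black). Circles are limma estimates with their 95% interval, filled at an adjusted p under 0.01, and ticks are single experiments. Filled circles appear for FOSL1, JUNB and JUND in DoxyNaB/NaB and for no gene in the others.

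Whether the butyrate response itself differed with doxycycline was tested as the NaB/Ctl change minus the DoxyNaB/Doxy change in limma. No AP-1 gene passed an adjusted p under 0.01 (0 of 9, against 1.36% of all genes tested), 5 of 9 had an unadjusted p under 0.05 (12.6% of all genes), and by the methods' t-test 0 passed. JUNB had the lowest p, with a difference of -0.50 ± 0.15 (SE, n = 6 experiments, limma adjusted p = 0.0967, lower in 6 of 6), that is, a larger rise with doxycycline in each experiment. JUND differed by -0.34 ± 0.11 (SE, limma adjusted p = 0.161), also lower in 6 of 6. The 95% interval of the difference was -0.72 to 0.13 for FOS, -0.54 to 0.35 for JUN, -1.22 to -0.05 for FOSB and -0.48 to -0.02 for FOSL1. It was 0.08 to 0.56 for MAFF and -0.22 to 0.69 for BATF3. For FOSL2 it ran from -1.25 to 1.91 and says little. A p that misses the threshold does not show that the response was the same with and without doxycycline. AXIN2, for comparison, differed by 1.95 ± 0.13 (SE, limma adjusted p = 8.24e-08).

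Across the 24 arrays, after the mean of each experiment was removed, FOS correlated with JUN at r = 0.991, with JUNB at 0.983, with FOSB at 0.956 and with FOSL1 at -0.980 (Pearson's r, as a description). The arrays share 4 treatments, and most of the spread of these genes lies between arrays with and without butyrate, so that any pair of genes with a large butyrate response correlates. FOSL2 reached 0.466 at most, with MAFF. The gene most like JUN was ZFP36, which encodes an mRNA-destabilizing protein, with r = 0.996, followed by the metallothionein gene MT1L with r = 0.995. FOS was most like a transcript that the files name by an accession only (r = 0.998) and MAPRE3 (0.997), a microtubule end-binding protein. FOSL1 was most like MOSMO (0.996) and HS3ST1 (0.995), FOSB like CSRNP1 (0.989) and PSPN (0.987), and JUNB like SRXN1 (0.993) and CYSRT1 (0.992). JUND was most like ARID3B (0.959) and HES4 (0.956), MAFF like NXF3 (0.964) and IL23A (0.961), BATF3 like ASXL1 (0.984) and DLX1 (0.984), and FOSL2 like PHYHIP (0.910) and a transcript named by an accession only (0.905).

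The genes around AP-1 were described from 4 lists chosen by name. Of 16 tested partners of the basic leucine zipper class, 6 were called in NaB/Ctl, 5 higher and 1 lower, with a median log2 change of 0.55, where that of all genes was 0.17 and 32.5% were called. ATF3, a stress-induced partner of JUN, rose by 2.43 ± 0.09 (SE, n = 6 experiments, limma adjusted p = 7.02e-14), with its other probes between 1.76 and 2.86. MAFA rose by 1.89, but by 0.72 with normexp (adjusted p = 0.0358), and DDIT3, the stress factor CHOP, rose by 1.85. JDP2, a JUN partner that represses AP-1 sites, fell by 2.15 ± 0.12 on the log2 scale (limma adjusted p = 2.02e-11). In DoxyNaB/Doxy 7 of the 16 were called, 5 higher and 2 lower, against 31.2% of all genes (18.7% higher, 12.5% lower). The median there was 0.44 over the partners and 0.11 over all genes.

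Of 21 tested immediate early genes other than the AP-1 members, 12 were called in NaB/Ctl, 11 higher and 1 lower. Of all genes 32.5% were called (21.0% higher, 11.5% lower). The median log2 change was 1.51 over the immediate early genes and 0.17 over all genes. CCN2, a matricellular protein gene, rose by 6.69 ± 0.19 (SE, n = 6 experiments, limma adjusted p = 3.25e-15). The zinc finger genes EGR3 and EGR2 rose by 4.01 and 3.72 and the nuclear receptor gene NR4A3 by 3.51, although among the 6 Ctl arrays EGR3 was well above background on 3, and EGR2 and NR4A3 on 5. With normexp these changes were 1.43 for EGR3, 1.98 for EGR2 and 1.97 for NR4A3. TRIB1, a pseudokinase gene, fell by 1.22 on the log2 scale (limma adjusted p = 3.01e-11). In DoxyNaB/Doxy 13 of the 21 were called, 10 higher and 3 lower, against 31.2% of all genes (18.7% higher, 12.5% lower). The median there was 0.61 over the immediate early genes and 0.11 over all genes.

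Of 19 tested genes commonly named as AP-1 targets, 13 were called in NaB/Ctl, 9 higher and 4 lower. Of all genes 32.5% were called (21.0% higher, 11.5% lower). The median log2 change was 0.17 over all genes and 0.96 over the target list. The list split in direction. The stromelysin gene MMP10 was well above background on 6 of 6 NaB arrays and 0 of 6 Ctl arrays. It entered the tests through the butyrate arrays only, so that no p is given for it. MMP10 is still among the 19 tested in both butyrate comparisons, and in NaB/Ctl among the 13 called, the 9 higher and the median. MMP1 and INHBA, also called, were not well above background on every Ctl array either. These counts thus rest in part on genes that were dim without butyrate. The mean NaB level of MMP10 lay 13-fold above a mark set by the lowest signal well above background on each Ctl array. That figure depends on the processing, since with normexp the fitted log2 change of MMP10 was 1.73, which is less. MMP1, the interstitial collagenase, rose by 4.83 ± 0.38 (SE, limma adjusted p = 1.66e-09, 4 of 6 Ctl arrays well above background), SPP1 (osteopontin) by 3.30 and INHBA, an activin subunit, by 2.39. Only 3 of 6 Ctl arrays had INHBA well above background, and its call was lost with normexp (0.65, adjusted p = 0.118) and without the replicate block (adjusted p = 0.0227). MMP1 changed by 2.49 and SPP1 by 1.84 with normexp. LIF, a cytokine, fell by 3.42 ± 0.14 (SE, limma adjusted p = 2.3e-13), PLAU, the urokinase, by 3.1 ± 0.10 (SE, limma adjusted p = 1.59e-14), the adhesion receptor CD44 by 2.80 and the cyclin CCND1 by 1.98 on the log2 scale. In DoxyNaB/Doxy 11 of the 19 were called, 7 higher and 4 lower, against 31.2% of all genes (18.7% higher, 12.5% lower). The median there was 0.45 over the targets and 0.11 over all genes. With only the probes well above background on all 24 arrays, which leaves out targets such as MMP10, 7 targets were called in NaB/Ctl and 5 in DoxyNaB/Doxy. Of the 14516 probes kept by that filter, 3880 and 3819 were called. The targets kept were not counted, so that 7 and 5 are not to be set against 19.

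The kinases and factors upstream of the AP-1 genes, and the proteins that turn JUN over, formed the list with the fewest calls under butyrate. Of 28 tested, 3 were called in NaB/Ctl, all lower, against 32.5% of all genes, and 16 had an adjusted p under 0.01, against 69.7%. The median log2 change, over genes that went both ways, was 0.08. They included ELK3, a ternary complex factor, at -1.51 ± 0.18 (SE, limma adjusted p = 5.51e-07), and the ubiquitin ligase ITCH at -1.32 ± 0.23 (SE, limma adjusted p = 4.1e-05). In DoxyNaB/Doxy 3 of the 28 were called, all lower, against 31.2% of all genes. There 14 had an adjusted p under 0.01, against 68.4%, and the median was 0.13, against 0.11. With scaling to the median 7 were called in NaB/Ctl.

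The butyrate response of 8 genes of these lists differed with doxycycline at an adjusted p under 0.01, all with a higher difference, where 1.36% of all genes passed (1.12% higher, 0.244% lower). They were 2 of 16 partners (JDP2 and BACH1), 4 of 21 immediate early genes (MYC, SGK1, IER3 and CCN2), 2 of 19 targets (CCND1 and TGFB1) and 0 of 28 upstream genes. JDP2 fell by 3.04 on the log2 scale with doxycycline against 2.15 without it (difference 0.89 ± 0.17, SE, limma adjusted p = 0.00652). Its level was higher in Doxy than in Ctl cells by 0.85 (limma adjusted p = 0.000835, 6 of 6 experiments), and the DoxyNaB/NaB change was -0.04 (adjusted p = 0.933). CCN2 rose by 5.29 with doxycycline against 6.69 without it (difference 1.40 ± 0.27, SE, limma adjusted p = 0.00575). SGK1, a serum-induced kinase, rose by 1.88 against 2.81 (difference 0.94 ± 0.12, SE, limma adjusted p = 0.000205), and TGFB1 by 0.45 against 1.19 (difference 0.74 ± 0.11, SE, limma adjusted p = 0.000909). IER3 changed by 0.02 against 0.73 (limma adjusted p = 0.00271) and BACH1 by -0.61 against -0.04 (limma adjusted p = 0.00319). MYC and CCND1, both known Wnt targets, differed by 1.6 (limma adjusted p = 2.13e-08) and 1.04 (limma adjusted p = 0.000201). All 8 were lost with scaling to the median, by the methods' t-test after adjustment and in experiments 5 and 6 alone (lowest adjusted p = 0.0777). In experiments 2 to 4 alone all but MYC were lost, and with normexp or without the replicate block all but MYC and CCND1.

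**Figure D5:**
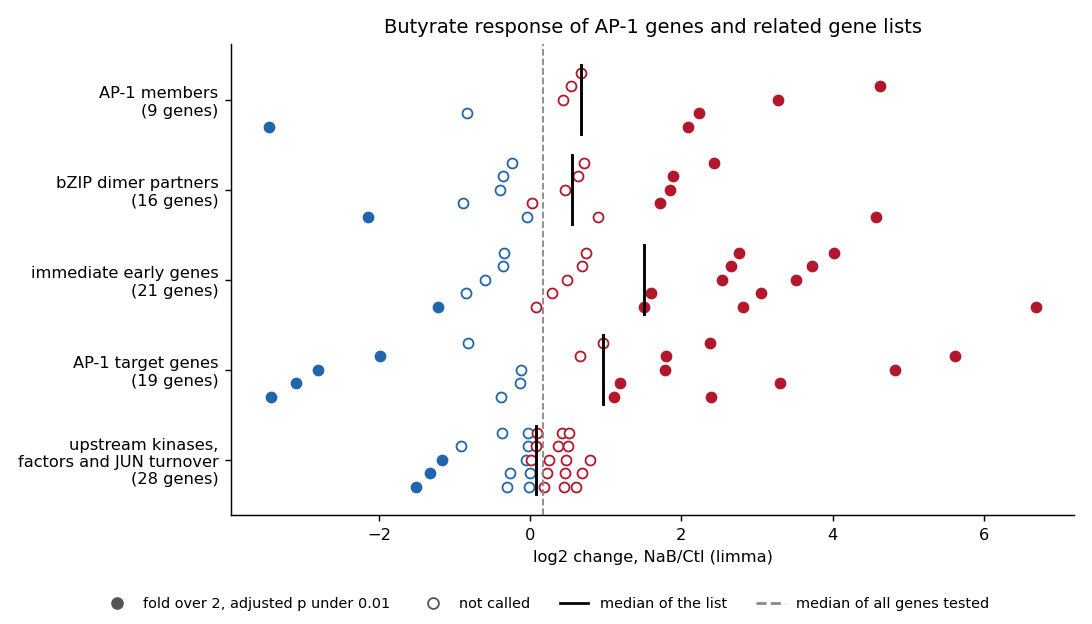
Log2 change in NaB/Ctl (x axis) of the AP-1 genes and of the tested genes of 4 lists (rows, 1 point per gene, spread vertically for view only). Filled points passed a fold over 2 and an adjusted p under 0.01, black lines are list medians and the dashed line is the median of all genes tested (0.17). The medians lie at 0.67 for the AP-1 genes, 0.55, 1.51 and 0.96 for partners, immediate early genes and targets, and 0.08 for the upstream genes.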

How the data were processed

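Gene expression was measured on 24 Agilent 1-colour arrays, 4 treatments in 6 experiments. Per the file headers, the deposited signal intensity of each spot was written by Feature Extraction 9.5.3.1, which had subtracted background and a spatial trend, array by array, and gives probe positions on NCBI36. No step had brought the arrays to a common scale. The number of arrays and their signal over background limit the precision.

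Control spots and outlier spots (359 to 795 per array) were left out, spots of 1 probe were averaged, and levels are log2 of the intensity relative to the array's 75th percentile. A probe entered when well above background on all 6 arrays of a treatment, which left 18966 probes for 15154 genes; of several probes of a gene, that with the highest mean stands for it. Treatments were compared with limma 3.58.1 in R 4.3.3 (lmFit, eBayes, Benjamini-Hochberg adjustment) over all 24 arrays, blocked by experiment since the study's methods name a paired test. Levels centred on their treatment correlated within an experiment with r from 0.219 to 0.851 in all but 1 of 36 pairs (-0.217, NaB and DoxyNaB of experiment 3). Between experiments of the same scan r could be as high (0.884, DoxyNaB of experiment 2 and NaB of experiment 3) or low (-0.350, DoxyNaB of experiments 2 and 3). These correlations therefore do not single out the experiment. The fit was also run on simulated data with independent noise around an additive experiment effect. Such data lack the correlations between experiments given above, so that this run does not show how the fit behaves under them.

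The AP-1 genes, the lists and the alternatives were chosen with earlier results of these data known. Named genes are the 9 members, the 2 genes most like each over the 24 arrays, up to 4 called genes of largest rise and fall in NaB/Ctl per list, the list genes whose response differed with doxycycline, AXIN2 and TCF7L2; some genes that this rule names are counted but not reported here by name. Alternatives were normexp background correction (offset 50), quantile normalization, scaling to the median (floor of 5), a stricter filter (all 24 arrays) or none, fits without the replicate block, with the slide in its place or on the groups compared alone, the methods' t-test, the mean over probes, single scans, leaving out the 2 arrays of highest negative controls, and leaving out each experiment. Probes were named by accession (24827), by a current (1276) or older (500) symbol, or as in the files (7524), with a RefSeq table of GRCh38.p14 used for names and promoter sequences. Whether a probe lies in a coding or untranslated exon was not analysed here. Python 3.11.15 (pandas 2.3.3, numpy 2.4.6, matplotlib 3.10.9) was used for tables and plots.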

Additional observations from a re-analysis of the deposited data

Results flagged for a closer look

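In each treatment the 6 levels of every AP-1 gene were checked for an array far from the other 5, as the gap to the nearest array divided by the whole range, against Dixon's critical value, which chance passes in about 1 of 20 groups. Of 36 groups, 3 passed. The JUNB level on the DoxyNaB array of experiment 3 was 3.53, above 3.14 on the next and 2.94 on the lowest array of that treatment (ratio 0.659). The MAFF level on the Doxy array of experiment 1 was -0.55, above -0.92 on the next and -1.08 on the lowest (ratio 0.701). The BATF3 level on the Ctl array of experiment 1 was 0.34, above -0.18 on the next and -0.45 on the lowest (ratio 0.658). Without experiment 3, JUNB changed by 0.63 in DoxyNaB/NaB, and without experiment 1, BATF3 changed by -0.75 in NaB/Ctl.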

How the results depend on the processing

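The number of AP-1 genes called stayed between 5 and 6 in NaB/Ctl and in DoxyNaB/Doxy under 19 alternatives, and at 0 in DoxyNaB/NaB, Doxy/Ctl and the difference of responses. Without the replicate block that pairs the arrays of an experiment, 5, 6, 0, 0 and 0 genes were called. Leaving out single experiments gave 5 in NaB/Ctl and 5 to 6 in DoxyNaB/Doxy. The count at an adjusted p under 0.01 alone was less steady in DoxyNaB/NaB, with 3 genes in the fit of all arrays and between 0 and 5 under the alternatives, where the block, the scaling and the arrays entered each changed it. By the methods' t-test with their stricter threshold and no adjustment, 8, 7, 3 and 3 genes passed in NaB/Ctl, DoxyNaB/Doxy, DoxyNaB/NaB and Doxy/Ctl and 0 in the difference (64.4%, 58.3%, 5.73%, 7.56% and 4.71% of all genes), and after adjustment 8, 7, 0, 0 and 0.

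Changes past the test turned sign only with scaling to the median, which moved the median of all probes down: MAFF to -0.078 in NaB/Ctl and -0.21 in DoxyNaB/Doxy, and JUND to -0.31 in NaB/Ctl. The other turns were of changes not past the test. In DoxyNaB/NaB, FOS went to -0.0056 with normexp and -0.044 in experiments 5 and 6, MAFF to 0.0019 with the median, and FOSL2 to 0.29 with normexp, 0.079 with quantile normalization, 0.068 with the median, 0.86 in experiments 5 and 6 and 0.036 without the 2 arrays of highest negative controls, and it lay between -0.35 and 0.40 when single experiments were left out. In NaB/Ctl FOSL2 went to -0.094 with quantile normalization and -0.21 with the median and, separately, in experiments 5 and 6. In DoxyNaB/Doxy it went to -0.20 with quantile normalization, -0.36 with the median and -0.10 without the 2 arrays, and lay between -0.19 and 0.81 when single experiments were left out. In Doxy/Ctl FOSL2 went to -0.051 with normexp and -0.012 in experiments 5 and 6, FOSB to -0.18 with normexp and -0.022 with quantile normalization, and FOS to 0.083 in experiments 2 to 4 and between -0.061 and 0.063 when single experiments were left out. In the difference of responses FOSL2 went to -0.34 with normexp and -0.87 in experiments 5 and 6 (-0.074 to 0.70 without single experiments), and JUN to 0.016 in experiments 2 to 4 (-0.33 to 0.016 without single experiments). FOSL2 had no value with the filter on all 24 arrays, and the difference none with only the groups compared. Why these values moved was not tested. Of 144 alternatives for the 8 list genes whose response differed with doxycycline, 69 lost the call, and without experiment 1 the targets called in DoxyNaB/NaB were 1 in place of 3. Leaving out single experiments gave 2 to 3 immediate early genes in place of 4, and 0 to 1 partners in place of 2, in the difference of responses.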
